A study of Mus musculus with 549 samples.

Results

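The 6 genes described here make up the RANKL, OPG and CSF1 axes: Tnfsf11, Tnfrsf11a, Tnfrsf11b, Csf1, Il34 and Csf1r. They were chosen by symbol, and all 6 were found in each of the 12 tables among 23385 named genes. Their transcripts were counted by 3' end RNA sequencing in tibial cartilage, metaphyseal cortical bone and metaphyseal cancellous bone after marrow removal, and in the inguinal lymph node of male C57BL/6J mice. All mice received parathyroid hormone, PTH (1-34), or vehicle for 8 weeks from 18 weeks of age, with 5 treatment days per week. They were sampled at 26 weeks of age (before loading), at 27 weeks (after 1 week of loading) or at 28 weeks (after 2 weeks). During those weeks the left tibia was loaded cyclically on 5 days per week under anaesthesia, the right limb of the same mouse was the unloaded control, and the mice received alendronate or vehicle. The groups are called vehicle, PTH, alendronate (vehicle first, alendronate during loading) and PTH-alendronate (PTH first, then alendronate), each with a left and a right limb. Alendronate is a bisphosphonate that binds to bone mineral and blocks resorption. The control limb shared the mouse, and so every drug, with the loaded limb.

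RANKL (Tnfsf11) is the ligand, made by osteocytes, osteoblasts, stromal cells and lymphocytes, that drives macrophage-lineage precursors to become osteoclasts, the cells that resorb bone. It acts through its receptor RANK (Tnfrsf11a), and osteoprotegerin, OPG (Tnfrsf11b), is a secreted decoy receptor that captures RANKL before it reaches RANK. The second signal an osteoclast precursor needs comes through the receptor CSF1R (Csf1r), a tyrosine kinase of macrophages and osteoclasts, which has a pair of ligands, CSF1 (Csf1) and interleukin 34 (Il34). Continuous PTH is known to raise Tnfsf11 and lower Tnfrsf11b in bone-forming cells, and OPG is also made by chondrocytes. The PTH here was given on 5 days per week and so not continuously.

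The promoters of the RANKL and CSF1 ligands are shown. The promoter set used held no entry for the other ligand gene, Il34, or for Tnfrsf11b. Each line gives the 250 bases before the RefSeq start on GRCm38.p6 (the build that the submitters' processing notes call mm10), read 5' to 3' on the gene's minus strand, chr14:78308044-78308293 for Tnfsf11 and chr3:107760470-107760719 for Csf1, and capitals mark a match to a searched motif.
Tnfsf11: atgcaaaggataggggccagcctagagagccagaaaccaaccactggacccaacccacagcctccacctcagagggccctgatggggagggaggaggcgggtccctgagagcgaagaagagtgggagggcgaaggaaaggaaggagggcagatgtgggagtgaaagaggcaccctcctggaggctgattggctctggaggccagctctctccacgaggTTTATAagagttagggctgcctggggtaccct
Csf1: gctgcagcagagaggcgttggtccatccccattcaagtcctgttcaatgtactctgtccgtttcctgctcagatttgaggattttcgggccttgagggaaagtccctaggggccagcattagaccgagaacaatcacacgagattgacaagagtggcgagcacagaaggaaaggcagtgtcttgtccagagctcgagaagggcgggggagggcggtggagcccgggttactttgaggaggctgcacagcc
Both strands were searched for the TATA box motif TATAAA, for the AP-1 motif with the letters TGANTCA, and for the core of the cAMP response element with the letters TGACG. Tnfsf11 held 1 match, a TATAAA read on the other strand and so printed as TTTATA, 32 bases before the start, which overlapped no other match. Among 32851 promoter windows of this length, 12.4% held TATAAA, 6.75% TGANTCA and 17.8% TGACG. Csf1 held none of the 3 in these letters.

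Of 549 samples 505 had values, and the 477 libraries with at least 100000 reads were used, with 127524 to 3557793 reads each and a median of 1576773. The 28 shallower libraries included 14 of cancellous and 9 of cortical bone at 1 week. A treatment and limb had up to 9 such libraries, and a comparison needed 3 in each group. In cartilage 8 of 8 chondrocyte markers were detected in every group. The summed neutrophil markers there also reached medians of 14.2 to 16.5 on a log2 scale by group. Both bones had 13.4 to 15.7, but each table was scaled by itself, so these sums are not compared between tissues. The lymph node held all B and T cell markers. Levels across tissues are given as CPM, a gene's reads scaled to a common library total, which depend on no scaling by the authors. Tests used limma on log2 of the authors' normalised value plus 1 within a table, and a gene passed where its p, adjusted over all genes by Benjamini-Hochberg, lay below 0.05. Both limbs of a mouse, inferred from runs of codes in the sample titles, were a random block, and the p-values measure the spread between these samples. The libraries used came from 9 to 35 such mice per table. The correlation within a mouse in the fits was low, from -0.0061 to 0.093, so limbs counted almost as separate mice. In such bulk tissue, fewer cells of a type and less RNA per cell cannot be told apart.

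On GRCm38, GENCODE places Tnfsf11 on chromosome 14 from 78277445 to 78308043 (minus strand), Tnfrsf11a on chromosome 1 from 105780718 to 105847981 (plus strand) and Tnfrsf11b on chromosome 15 from 54250619 to 54278484 (minus strand). Csf1 lies on chromosome 3 from 107741048 to 107760469 (minus strand), Il34 on chromosome 8 from 110741829 to 110805924 (minus strand) and Csf1r on chromosome 18 from 61100598 to 61132149 (plus strand).

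OPG set cartilage apart from the other tissues. Tnfrsf11b had a median of 33.5 CPM in cartilage (quartiles 16.0 and 57.7, n = 143 libraries), against 2.83 CPM in cortical bone (1.18 and 4.47, n = 106) and 1.86 CPM in cancellous bone (0.131 and 4.88, n = 94). The quartile ranges of both bones overlapped. In lymph node 81.3% of 134 libraries held 0 reads of Tnfrsf11b, which allows up to 0.870 to 19.5 CPM in such a library by counting error, and the gene was too low there to be tested. Within cartilage the median was 48.7 CPM before loading, 43.2 CPM at 1 week and 19.1 CPM at 2 weeks. These weeks are separate tables, and no test was run between them.

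RANKL was scarce in every tissue. Tnfsf11 had medians of 1.99 CPM in lymph node (quartiles 0.865 and 3.36), 1.88 CPM in cartilage (0 and 3.81), 1.34 CPM in cortical bone (0.622 and 2.99) and 0.827 CPM in cancellous bone (0 and 2.78), an order in which each neighbour overlapped the next. Cancellous bone had 40 of 94 libraries at 0 reads and lymph node 13 of 134. The median library held 1 to 3 reads of it by tissue, so that differences of this gene rest on few molecules. Its receptor Tnfrsf11a was more even, with medians of 14.9 CPM in cartilage, 15.2 CPM in lymph node, 17.1 CPM in cortical and 17.4 CPM in cancellous bone and overlapping quartiles.

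The CSF1 axis was read more deeply. Csf1r had medians of 713 CPM in cortical bone (quartiles 510 and 933), 647 CPM in lymph node (515 and 781), 470 CPM in cancellous bone (297 and 752) and 306 CPM in cartilage (221 and 440). Csf1 had medians of 77.9 CPM in cortical and 74.9 CPM in cancellous bone, 55.2 CPM in lymph node and 42.1 CPM in cartilage. Il34 was higher in bone, at 45.7 CPM in cancellous bone (quartiles 24.7 and 69.5) and 36.9 CPM in cortical bone (26.3 and 51.5), than in cartilage, at 18.2 CPM (12.6 and 24.9), or lymph node, at 17.4 CPM (13.6 and 20.9), and the bone quartiles did not overlap those of lymph node. No test was run across tissues.

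**Figure D1:**
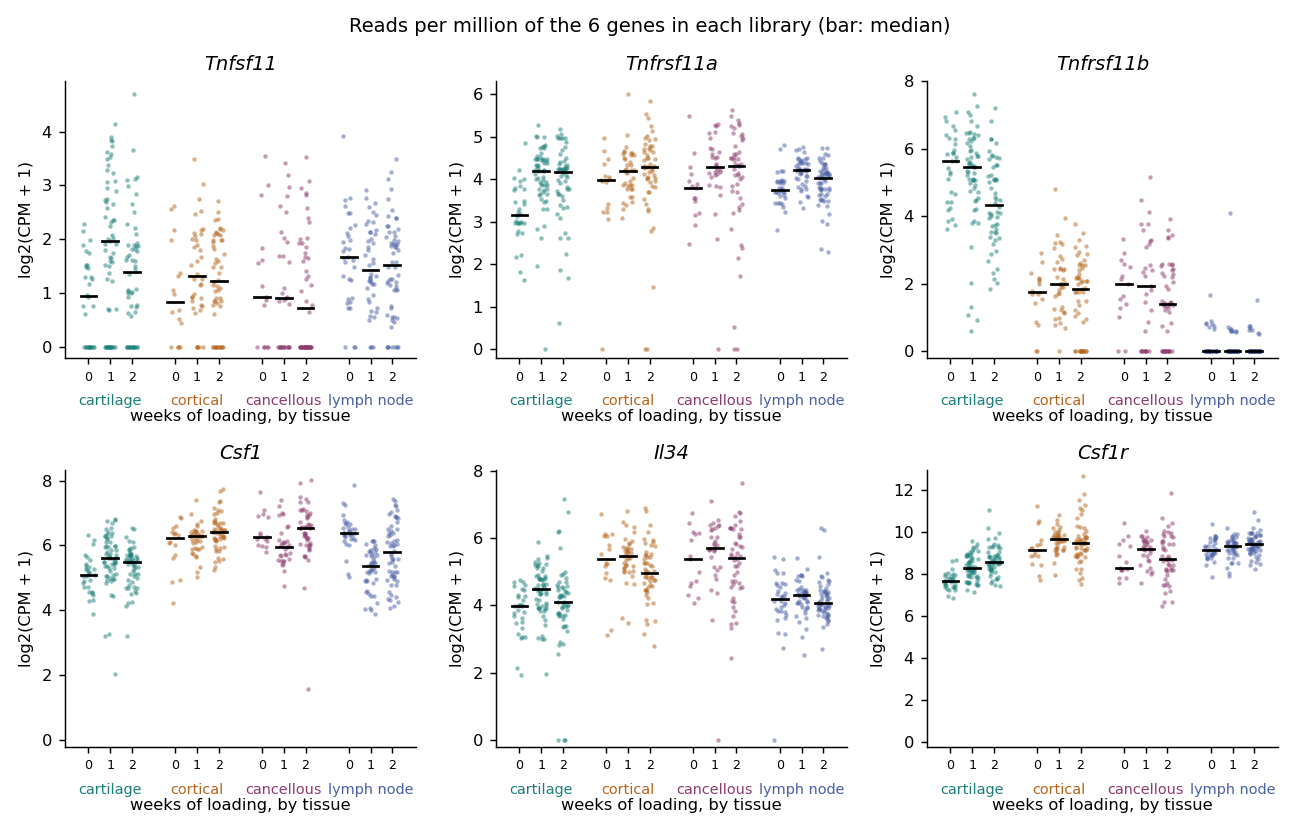
Levels of the 6 genes, as log2(CPM + 1), in each of the 477 libraries used, by tissue and weeks of loading. Points are libraries and bars are medians. With all weeks pooled, Tnfrsf11b has a median of 33.5 CPM in cartilage and 0 in lymph node, and in cartilage at 2 weeks 19.1 CPM, while Tnfsf11 is near the floor in all 4 tissues.

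Read within a library, the log2 difference of Tnfrsf11b minus Tnfsf11 had a median of 4.2 in cartilage before loading, 3.21 at 1 week and 3.29 at 2 weeks, and was above 0 in all 143 cartilage libraries. Its median was 0 to 1.12 over the cortical tables, 0.336 to 0.700 over the cancellous tables and -1.89 to -1.76 over the lymph node tables. Only the differences between tissues are described from this measure, since reads of different genes are not on a common scale. Near the floor the added 1, worth 1.03 to 3.95 reads by table, pulls the measure towards 0. In lymph node 81.3% of libraries held 0 reads of Tnfrsf11b, so there it mostly follows Tnfsf11 alone. Its size in bone and lymph node is therefore not read.

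Before loading, OPG in cartilage was higher after PTH with both limbs pooled, and by estimate mostly in right limbs. Tnfrsf11b ran from 4.07 through a median of 5.84 to 7.28 in 15 PTH libraries, and from 3.59 through 4.58 to 6.53 in 15 vehicle libraries. The means were 5.86 ± 0.85 (SD, n = 15) and 4.84 ± 0.99 (SD, n = 15), a log2 difference of 1.00 ± 0.31 (SE) with a limma adjusted p of 0.0244. These 30 libraries were limbs of 16 mice. The groups overlapped over most of their range. In this comparison 14.6% of all genes tested passed (1095 higher and 763 lower of 12705), so 1 of 5 tested members is close to the background. The other tested members had differences of 0.50 ± 0.26 for Tnfrsf11a (adjusted p = 0.197), 0.44 ± 0.22 for Il34, 0.36 ± 0.20 for Csf1 and 0.05 ± 0.16 for Csf1r. Tnfsf11 was too low to be tested there, at 0 in 5 of 15 PTH and 6 of 15 vehicle libraries.

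The OPG difference was uneven between limbs, although no limb had been loaded. In right limbs Tnfrsf11b ran from 4.07 through 6.34 to 7.28 after PTH (n = 7) and from 3.59 through 4.12 to 5.75 after vehicle (n = 8), and from right limbs alone the difference was 1.77 ± 0.38 (limma adjusted p = 0.00592). In left limbs it ran from 4.95 through 5.46 to 6.96 after PTH (n = 8) and from 3.9 through 5.68 to 6.53 after vehicle (n = 7), and from left limbs alone the difference was 0.23, with an adjusted p of 0.850 and only 1 gene of the whole table past the threshold. The vehicle right limbs had the lowest median of these groups, and their range overlapped that of the other 3. The PTH effect of left minus right limbs was -1.55 ± 0.55 (limma, p = 0.00748 unadjusted, adjusted p = 0.357), in a comparison where 0 of 12705 genes passed and 1207 had an unadjusted p under 0.05. With the 2 shallow cartilage libraries included, the PTH difference was 0.58 (adjusted p = 0.589). Csf1r was uneven between limbs as well, with PTH differences of 0.465 ± 0.21 in left and -0.37 ± 0.21 in right limbs. For Csf1r left minus right was 0.84 ± 0.29 (limma, unadjusted p = 0.00627, adjusted p = 0.354).

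Among the genes around the axes in cartilage before loading, the PTH calls are read against the 14.6% of all genes that passed. Of 23 tested genes of RANK signalling 2 rose and 1 fell: the osteoclast transcription factor Mitf by 0.83, the receptor Lgr4, which also binds RANKL, by 1.10, and the ubiquitin ligase Cbl by -0.52. Of 14 osteoclast genes 0 rose and 2 fell, integrin beta 3 (Itgb3) by -0.87 and carbonic anhydrase 2 (Car2) by -0.79. Among 18 genes of CSF1 receptor signalling 1 rose and 7 fell, with a list median of -0.57 against 0.02 over all genes; the phosphatase Ptprz1, a receptor of interleukin 34, rose by 0.83, and the myeloid genes Fcer1g and Ptpn6 fell by -0.69 and -0.88. Of 32 regulators of Tnfsf11 and Tnfrsf11b 3 rose and 1 fell, among them the osteocyte Wnt inhibitor Sost at 1.18, the receptor Il11ra1 at 0.73 and the cytokine Tnf at -1.23. Of 21 other TNF superfamily genes 0 rose and 5 fell, with Tnfsf14 at -1.36 and Tnfrsf13c at -1.05.

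Cell type markers moved in the same cartilage libraries. Among osteoblast and osteocyte markers 7 of 9 rose, and 4 of 5 fibroblast markers and 2 of 7 chondrocyte markers. All 5 neutrophil markers fell and 4 of 5 erythroid markers. The summed fibroblast markers, on a log2 scale, ran from 11.0 through 12.8 to 14.0 after PTH and from 9.77 through 11.1 to 13.2 after vehicle, and the neutrophil sum from 11.6 through 14.2 to 15.1 and from 14.1 through 15.0 to 16.0. The summed adipocyte markers were uneven between limbs. They ran from 6.92 through 11.15 to 11.66 in PTH right limbs (n = 7). Their medians were 7.58 in PTH left, 7.29 in vehicle left and 7.39 in vehicle right limbs, where vehicle left limbs reached 10.69. No defining marker of these lists was at 0 in every library, and their part in the OPG difference was not tested.

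**Figure D2:**
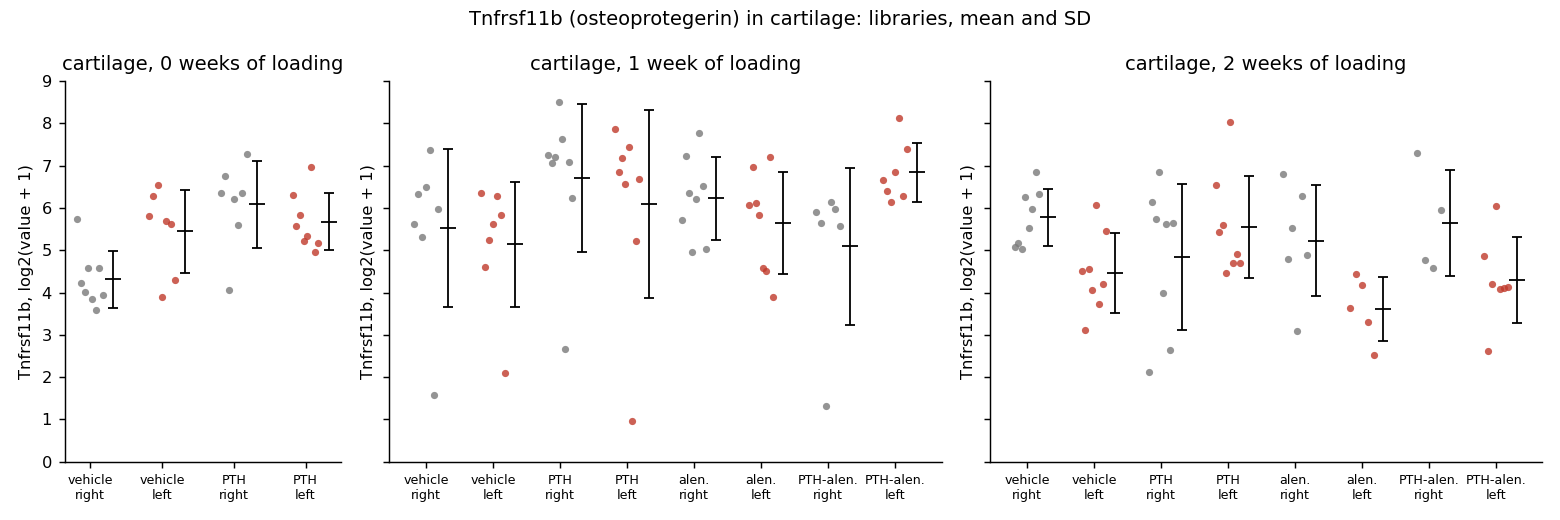
Tnfrsf11b in cartilage as log2(normalised value + 1) at 0, 1 and 2 weeks, by treatment and limb (grey right, red left). Points are libraries, and the bar and whiskers beside them are mean and SD. Before loading the vehicle right limbs have the lowest median, at 4.12. At 2 weeks the left limbs lie below the right in 3 of 4 treatments by mean.

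In bone before loading PTH gave no call for the RANKL and OPG genes. In cortical bone Tnfsf11 had a difference of 0.34 ± 0.59 and Tnfrsf11b of -0.09 ± 0.57, and in cancellous bone -0.51 ± 0.73 and 0.20 ± 0.68 (limma, adjusted p of 0.914 or more). Tnfrsf11b ran from 0 through 2.53 to 3.31 in 9 cortical PTH libraries and from 1.06 through 2.34 to 3.47 in 7 vehicle libraries, which overlapped throughout. At that time 0.0076% of cortical genes (1 of 13162) and 0% of cancellous genes (0 of 12413 by limma, with 710 at an unadjusted p under 0.05) passed, and each SE was over 0.5, so that a difference of that size was not detectable at this depth and number. In lymph node before loading, where 0.734% of genes passed, Csf1 had a PTH difference of -0.45 ± 0.18 (adjusted p = 0.196) and Il34 of 0.73 ± 0.32 (adjusted p = 0.233).

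Left against right limbs before loading gave no call for any member in any tissue, and limma called 0% of genes in each of these tables, with 218 to 461 at an unadjusted p under 0.05. In cartilage Il34 was nonetheless -0.86 ± 0.22 lower by estimate in left limbs, at 1.82, 3.37 and 4.31 (lowest, median and highest of 15) against 2.96, 4.33 and 4.75 in 15 right limbs, with an unadjusted p of 0.000305 and an adjusted p of 1.

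After 2 weeks of loading, OPG was lower in the loaded cartilage. Averaged over treatments, Tnfrsf11b ran from 2.52 through 4.45 to 8.03 in 28 left limbs and from 2.13 through 5.58 to 7.30 in 26 right limbs. The means were 4.58 ± 1.18 (SD, n = 28) and 5.34 ± 1.28 (SD, n = 26), and the log2 difference was -0.89 ± 0.31 (limma adjusted p = 0.0306). The limbs overlapped widely. In this comparison 21.2% of genes passed (1745 higher and 1472 lower of 15187), above the 1 of 6 members. With the animal as a fixed replicate block, which compares both limbs of a mouse, the difference was -0.87 with an adjusted p of 0.0721. Leaving out left alendronate replicate 5, right PTH-alendronate replicate 3 or right PTH-alendronate replicate 7 moved the adjusted p to 0.0521, 0.0751 and 0.0528.

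By treatment, OPG in vehicle mice ran from 3.12 through 4.36 to 6.08 in left and from 5.04 through 5.75 to 6.84 in right limbs (n = 8 each), a difference of -1.31 ± 0.55. In alendronate mice the 5 left limbs stood at 2.52, 3.31, 3.64, 4.18 and 4.45, and the 6 right limbs ran from 3.08 through 5.20 to 6.81, a difference of -1.61 ± 0.67. PTH-alendronate mice ran from 2.61 through 4.13 to 6.04 in 7 left limbs and stood at 4.57, 4.77, 5.96 and 7.30 in 4 right limbs, a difference of -1.35 ± 0.69. PTH mice went against this by estimate, from 4.45 through 5.18 to 8.03 in left and from 2.13 through 5.64 to 6.84 in right limbs (n = 8 each), a difference of 0.70 ± 0.55. None of these 4 differences passed by itself (limma adjusted p from 0.134 to 0.546), where 1.37%, 6.24%, 0.593% and 4.71% of all genes did in the same order. The change of the loading difference by PTH was 1.13 ± 0.62 (limma, unadjusted p = 0.0716, adjusted p = 0.757), and 0% of genes passed in that comparison (1007 at an unadjusted p under 0.05), so a difference between treatments was not shown.

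At 1 week the same measure was 0.05 ± 0.37 (adjusted p = 0.949) in cartilage, where 24.6% of genes passed with loading and 0 of 6 members did. In bone, Tnfrsf11b had loading differences of -0.82 ± 0.30 in cortical bone at 1 week (adjusted p = 0.187), -0.04 ± 0.32 at 2 weeks, and -0.43 ± 0.33 and -0.92 ± 0.36 in cancellous bone at 1 and 2 weeks (adjusted p = 1 and 0.807). Loading calls were few in bone, at 1.45% and 0.283% of cortical genes at 1 and 2 weeks and 0% of cancellous genes at both (limma, with 477 and 913 at an unadjusted p under 0.05). In each bone at 1 week the PTH-alendronate left limbs had 1 library. The averages of loading, PTH and alendronate in bone at 1 week therefore lack the pairs with that group. RANKL gave no call with loading by limma. Tnfsf11 differences in cartilage were 0.63 ± 0.39 at 1 week and 0.51 ± 0.33 at 2 weeks (adjusted p = 0.253 and 0.290), and with array weights the difference at 1 week passed (0.96, adjusted p = 0.0298), and Tnfrsf11a differences 0.30 ± 0.22 and 0.04 ± 0.25.

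The pathway lists with loading in cartilage at 2 weeks are read against the 21.2% of all genes that passed (1745 higher and 1472 lower). Of 35 regulators of Tnfsf11 and Tnfrsf11b 8 rose and 1 fell, among them the cytokine Il11 at 3.10, the PTH receptor Pth1r at 1.32 and the prostaglandin synthase Ptgs2 at 1.26. Of 24 RANK signalling genes 4 rose and 1 fell, with the AP-1 subunits Fosl1 at 1.65 and Jun at 0.92 and with Mitf at 0.50. Osteoclast genes gave 0 rises and 1 fall among 16, Car2 at -1.59, a smaller share than over all genes. Among 18 genes of CSF1 receptor signalling 4 rose and 9 fell, a larger share than over all genes. The transcription factor Runx1 stood at 1.36 and the proteoglycan Sdc1, a partner of interleukin 34, at 1.30. Of 27 other TNF superfamily genes 3 rose and 5 fell, with Tnfrsf23 at 1.78, Tnfsf14 at -1.55 and Tnfsf13b at -1.25. The list medians ran from -0.44 to 0.14, against -0.01 over all genes.

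In these cartilage libraries all 8 chondrocyte markers rose with loading and 4 of 5 fibroblast markers, while all 5 neutrophil, all 5 erythroid and 4 of 5 adipocyte markers fell. The summed chondrocyte markers ran from 10.3 through 12.2 to 15.6 in left limbs and from 7.73 through 9.96 to 13.0 in right limbs on a log2 scale. The part of these shifts in the OPG difference was not tested.

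In cartilage at 2 weeks RANKL was lower in the alendronate groups on average. Tnfsf11 ran from 0 through 1.01 to 5.04 in 22 alendronate libraries, with 8 at 0 reads and a median of 1 read, and from 0 through 2.23 to 4.18 in 32 libraries without alendronate, with 5 at 0 and a median of 5 reads. The difference averaged over pretreatment and limb was -0.85 ± 0.33 (limma adjusted p = 0.0470). By group the means with and without alendronate were 0.82 and 2.42 in left and 0.94 and 1.63 in right limbs. After PTH they were 1.51 and 2.57 in left and 1.33 and 1.40 in right limbs. Depth was uneven, from 453003 to 1944703 reads in alendronate, 954702 to 2684094 in vehicle and 1561004 to 2773538 in PTH mice. PTH-alendronate left limbs held 786947 to 3557793 reads. The groups overlapped: PTH-alendronate left replicate 4 alone stood at 5.04, the other alendronate libraries reached 2.39, and those without alendronate 4.18. In this comparison 27.4% of genes passed (1656 higher and 2508 lower of 15187) and the median of all genes was -0.12, and by edgeR the split was 2094 higher and 2014 lower. The call was lost in 5 of 8 alternative settings, edgeR on the recovered reads among them (-0.91, adjusted p = 0.164), and was kept in 4 of 10 fits that each left out 1 library, with an adjusted p up to 0.102. The series of library codes in the sample titles followed alendronate exactly in this table, so the drug and the code series cannot be told apart. Tnfrsf11a had a difference of -0.55 ± 0.25 (adjusted p = 0.0946) and Tnfrsf11b of -0.46 ± 0.31 (adjusted p = 0.279).

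Beside it in cartilage, 7 of 7 skeletal muscle markers and 4 of 8 chondrocyte markers were higher in the alendronate libraries. The summed muscle markers ran from 8.70 through 11.9 to 14.8 with alendronate and from 6.52 through 8.41 to 13.4 without, on a log2 scale, and their part in the RANKL difference was not tested. The pathway lists are read against the 27.4% of all genes that passed. RANK signalling genes split into 4 higher and 6 lower of 24, with Jun at 1.06, Gab2 at 0.74 and the kinase Mapk14 at -0.69. Osteoclast genes gave 0 higher and 2 lower of 16, the acid transport genes Ostm1 at -1.72 and Tcirg1 at -0.85. CSF1 receptor partners split into 5 higher and 4 lower of 18, with the adaptor Grb2 at 0.81, Pik3r1 at 0.67 and Ptpn6 at -0.82. Regulators split into 4 and 5 of 35, with the prostaglandin receptor Ptger4 at -1.39, Sost at 1.21 and Il1b at -0.80, and other TNF superfamily genes into 2 and 5 of 27, with Tnfsf13b at -1.43, Cd40 at -1.38 and Tnfrsf1a at -0.55.

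At 1 week of alendronate, when 0% of cartilage genes passed by limma and 1160 had an unadjusted p under 0.05, Tnfsf11 in cartilage had a difference of 0.52 ± 0.41 by estimate (adjusted p = 0.766). In cancellous bone at 2 weeks the Tnfsf11 difference was 1.21 ± 0.41 (limma adjusted p = 0.130), and edgeR gave 3.18 with an adjusted p of 0.0260. Cortical bone had 0.18 ± 0.30. Tnfrsf11b in cortical bone at 2 weeks had an alendronate difference of -0.96 ± 0.39 (limma adjusted p = 0.132), and passed with array weights (-1.21, adjusted p = 0.0230), edgeR (-1.39, adjusted p = 0.0485) and voom (-1.41, adjusted p = 0.0429). Alendronate comparisons in cancellous and cortical bone at 1 week called 0% (367 at an unadjusted p under 0.05) and 2.93% of genes by limma, and no member.

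The receptor CSF1R was higher with alendronate in cancellous bone at 2 weeks. Csf1r ran from 7.11 through 9.87 to 12.3 in 20 alendronate libraries and from 6.93 through 8.85 to 10.8 in 28 libraries without. The fit held a term for the code series, because all alendronate libraries carried letter codes. Libraries without alendronate ran from 6.93 through 8.46 to 9.03 under letter codes (n = 14) and from 7.50 through 9.14 to 10.8 under number codes (n = 14). The log2 difference was 1.45 ± 0.31 (limma adjusted p = 0.00804), within letter codes alone 1.48 ± 0.32 (adjusted p = 0.0197), and without the series term 0.97 (adjusted p = 0.0782). Only 0.94% of genes passed (140 of 14891, of which 33 were lower). Leaving out each library of the smaller groups in turn kept it between 1.30 and 1.61, past the threshold each time.

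By group in cancellous bone, the highest Csf1r levels were in PTH-alendronate mice. Their 4 right limbs stood at 9.36, 10.2, 10.9 and 11.0 and their 5 left limbs at 7.60, 10.0, 10.1, 10.7 and 12.3. In alendronate mice the 6 right limbs ran from 8.76 through 9.71 to 10.5, and the 5 left limbs stood at 7.11, 7.86, 8.28, 9.57 and 10.3. PTH mice ran from 7.50 through 8.86 to 10.8 in 8 right limbs and stood at 7.87, 8.07, 8.96 and 9.78 in 4 left limbs, and vehicle mice ran from 8.47 through 9.01 to 9.80 in 9 right limbs and from 6.93 through 8.46 to 9.35 in 7 left limbs. None of the 4 pairs passed by itself, with differences from 0.78 to 1.97 (limma adjusted p from 0.104 to 0.961), and at most 0.0201% of genes passed in any of them. PTH-alendronate and alendronate left limbs differed by 1.54 ± 0.53 (adjusted p = 0.158), where 0.0201% of genes passed.

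In the same cancellous comparison, where 0.94% of all genes passed, 7 of 16 tested osteoclast genes rose and 0 fell, among them the gelatinase Mmp9 at 1.46, the creatine kinase Ckb at 1.68 and the fusion protein Dcstamp at 2.67, with a list median of 0.78 against -0.02 over all genes. The osteoclast master factor Nfatc1 rose by 0.84, the 1 of 23 RANK signalling genes that passed. Of 18 CSF1 receptor partners 0 passed, and 1 of 34 regulators rose, Il11ra1 at 1.81, and 1 of 27 other TNF superfamily genes, Tnfrsf9 at 2.10. The summed osteoclast markers ran from 10.5 through 12.3 to 13.1 with alendronate and from 10.0 through 10.9 to 12.0 without under letter codes, and 6 of 8 rose. The summed macrophage markers had medians of 11.0 and 10.9 in the same libraries, and 0 of 9 macrophage markers passed. Skeletal muscle markers had a list median of 1.78, with 0 of 7 past the threshold.

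**Figure D3:**
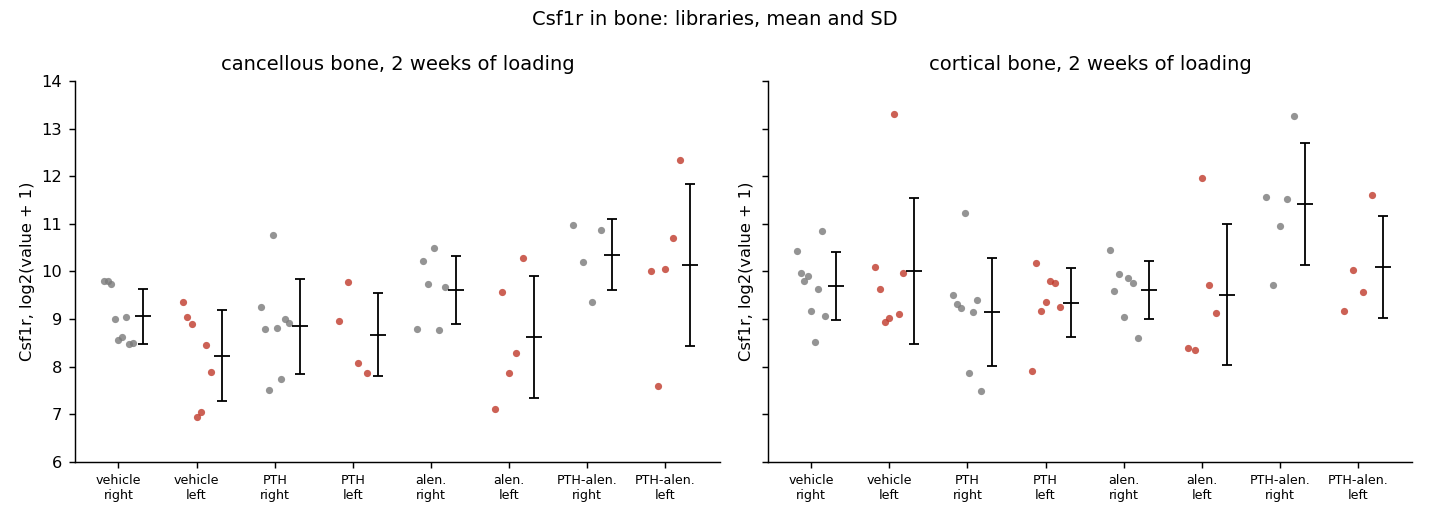
Csf1r in cancellous and cortical bone after 2 weeks of loading as log2(normalised value + 1), by treatment and limb (grey right, red left). Points are libraries, and the bar and whiskers beside them are mean and SD. PTH-alendronate right limbs lie highest among right limbs in both bones, with means of 10.4 and 11.4.

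Cortical bone at 2 weeks showed a difference of Csf1r and its ligand Il34 with alendronate after PTH, in right limbs. The 5 PTH-alendronate right limbs stood at 9.71, 11.0, 11.5, 11.6 and 13.3 for Csf1r, and 8 PTH right limbs ran from 7.48 through 9.27 to 11.2. The means were 11.4 ± 1.28 (SD, n = 5) and 9.15 ± 1.14 (SD, n = 8), a difference of 2.30 ± 0.60 (limma adjusted p = 0.0170). Il34 stood at 5.94, 5.95, 6.04, 6.47 and 7.03 in the same 5 libraries and ran from 2.92 through 4.82 to 7.46 in the 8, a difference of 1.73 ± 0.49 (adjusted p = 0.0280). Both genes overlapped between groups. Here 5.31% of genes passed (340 higher and 467 lower of 15189; by edgeR 966 and 782).

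The cortical result rested on few libraries. Without PTH-alendronate right replicate 7 the adjusted p was 0.0543 for Csf1r and 0.108 for Il34, and 214 genes passed in all, and without replicate 8 it was 0.119 and 0.0688, with 145 genes. Within letter codes alone Csf1r differed by 2.93 (adjusted p = 0.0888) and Il34 by 2.14 (adjusted p = 0.156). The Il34 call was also lost with edgeR (1.26, adjusted p = 0.0754) and without the code series term (1.49, adjusted p = 0.106). Over all pairs of groups the alendronate difference in cortical bone was 0.64 ± 0.34 for Csf1r (adjusted p = 0.270) and 0.80 ± 0.28 for Il34 (adjusted p = 0.0761), where 5.31% of genes passed as well, 500 higher and 307 lower. In the left limbs of PTH mice it was 0.78 ± 0.64 for Csf1r and 0.64 ± 0.53 for Il34, and in the right limbs of mice without PTH -0.05 ± 0.56 and -0.06 ± 0.46, none past the threshold, with 0.0658% and 0.0395% of genes called. In the left limbs of mice without PTH it was -0.47 ± 0.60 and 0.90 ± 0.50 (0.00658% of genes called), also short of the threshold. The difference between these pairs was not tested.

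Of 16 osteoclast genes in cortical bone 4 rose in that comparison, where 5.31% of all genes passed, and 0 fell, with Mmp9 at 2.07, Dcstamp at 1.82 and the collagenase Ctsk, cathepsin K, at 1.64. The summed osteoclast markers ran from 12.2 through 12.47 to 13.6 in PTH-alendronate right limbs and from 10.6 through 11.4 to 11.8 in PTH right limbs, which did not overlap, and 3 of 8 rose. The summed macrophage markers had medians of 10.6 and 10.2 there and overlapped. Of 18 CSF1 receptor partners 2 rose and 1 fell, the myeloid factor PU.1 (Sfpi1) at 2.24, the receptor Csf2ra at 1.90 and Ptprz1 at -2.04. Among 34 regulators 0 rose and 3 fell, with the glucocorticoid receptor Nr3c1 at -1.74, the PTH-responsive kinase Sik2 at -2.09 and Lifr at -1.50, and 1 of 27 other TNF superfamily genes rose, Tnfrsf9 at 2.90. No RANK signalling gene among 23 passed. Osteoblast and osteocyte markers had 3 of 9 lower.

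In lymph node after 2 weeks the ligand CSF1 differed both with loading and with alendronate. Csf1 ran from 4.75 through 6.00 to 7.54 in 30 left nodes and from 5.17 through 6.81 to 8.11 in 28 right nodes, with means of 6.13 ± 0.84 (SD, n = 30) and 6.80 ± 0.86 (SD, n = 28). The loading difference was -0.64 ± 0.17 (limma adjusted p = 0.0262). Left and right nodes overlapped over most of the range. In this comparison 6.34% of genes passed (245 higher and 653 lower of 14155; by edgeR 619 and 680), and the median of all genes was -0.11. With the animal as a fixed replicate block it was -0.54 (adjusted p = 0.0878). Right nodes were higher by mean in each of the 4 treatments, with differences of -0.51 in vehicle, -0.88 in PTH, -0.82 in alendronate and -0.33 in PTH-alendronate mice, none past the threshold by itself (limma adjusted p of 0.259 or more). At 1 week the loading difference was -0.33 ± 0.17 (adjusted p = 0.410), when 0% of genes passed by limma and 1795 had an unadjusted p under 0.05, and before loading left and right nodes differed by 0.04 ± 0.17.

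With alendronate Csf1 ran from 4.75 through 7.04 to 8.11 in 32 lymph node libraries and from 4.78 through 5.82 to 7.69 in 26 without. The difference was 0.98 ± 0.19 (limma adjusted p = 2.6e-05), in a comparison where 36.5% of genes passed (2316 higher and 2846 lower). It was highest in the right nodes of alendronate mice, which ran from 6.97 through 7.56 to 8.11 (n = 8) and did not overlap the vehicle right nodes at 5.17, 6.32 and 6.65 (lowest, median and highest of 6), a difference of 1.38 ± 0.37 (adjusted p = 0.00925; 9.54% of genes passed). Left nodes differed by 1.06 ± 0.35 (adjusted p = 0.0180; 29% of genes passed). After PTH the differences were 1.01 ± 0.35 in left and 0.45 ± 0.37 in right nodes (adjusted p = 0.0614 and 0.565; 8.29% and 6.93% of genes passed). The code series followed alendronate exactly in this table too, so the drug and the series cannot be told apart. At 1 week the alendronate difference of Csf1 was -0.19 ± 0.18 (adjusted p = 0.733), when 0% of genes passed by limma and 1433 had an unadjusted p under 0.05.

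Csf1 was the 1 of 5 tested members to pass by limma in either lymph node comparison. Of all genes 36.5% passed with alendronate and 6.34% with loading. With alendronate Tnfsf11 had 0.49 ± 0.27 (adjusted p = 0.153), which passed with array weights (0.67, adjusted p = 0.0121) and with voom (0.73, adjusted p = 0.0485). Tnfrsf11a had 0.15 ± 0.13, Il34 0.15 ± 0.18 and Csf1r 0.08 ± 0.14, and with loading Tnfsf11 had -0.62 ± 0.25 (adjusted p = 0.112) and Csf1r 0.29 ± 0.13 (adjusted p = 0.167). Macrophage markers were higher with alendronate for 6 of 9, with a list median of 0.57, and their sum ran from 10.7 through 11.5 to 12.1 with and from 10.1 through 11.1 to 13.3 without alendronate, on a log2 scale. Of 9 macrophage markers 0 rose and 1 fell with loading. Their part in the Csf1 difference was not tested.

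Among the pathway genes in lymph node, read against the 36.5% of all genes that passed, alendronate libraries had 6 higher and 2 lower of 17 CSF1 receptor partners, with Sfpi1 at 0.83, Pik3r1 at 0.74 and the kinase Syk at -0.81. RANK signalling gave 2 higher and 7 lower of 23, with Jun at 0.94, Tab2 at -0.65 and the NF-kappaB subunit Relb at -0.56. Osteoclast genes gave 1 higher and 5 lower of 13, with Acp5 at -0.62, Ostm1 at -0.54 and Tcirg1 at -1.02, and regulators 7 and 4 of 30, with Il6ra at 0.95, Nr3c1 at 0.77 and Stat3 at -0.77. Other TNF superfamily genes gave 5 and 7 of 27, with the lymphotoxin Ltb at 1.39, Tnf at -0.89 and Tnfrsf23 at -1.08. With loading, where 6.34% of all genes passed, the lists gave few calls: 0 and 1 of 23 (Chuk at -0.78), 1 and 0 of 13 (Acp5 at 0.34), 1 and 0 of 17 (Sfpi1 at 0.49), 0 and 2 of 30 (Lifr at -0.60, Nr3c1 at -0.33) and 0 and 3 of 27 (Tnfrsf19 at -0.84, Tnfsf13b at -0.82, Tnfrsf21 at -0.79), in the same order.

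**Figure D4:**
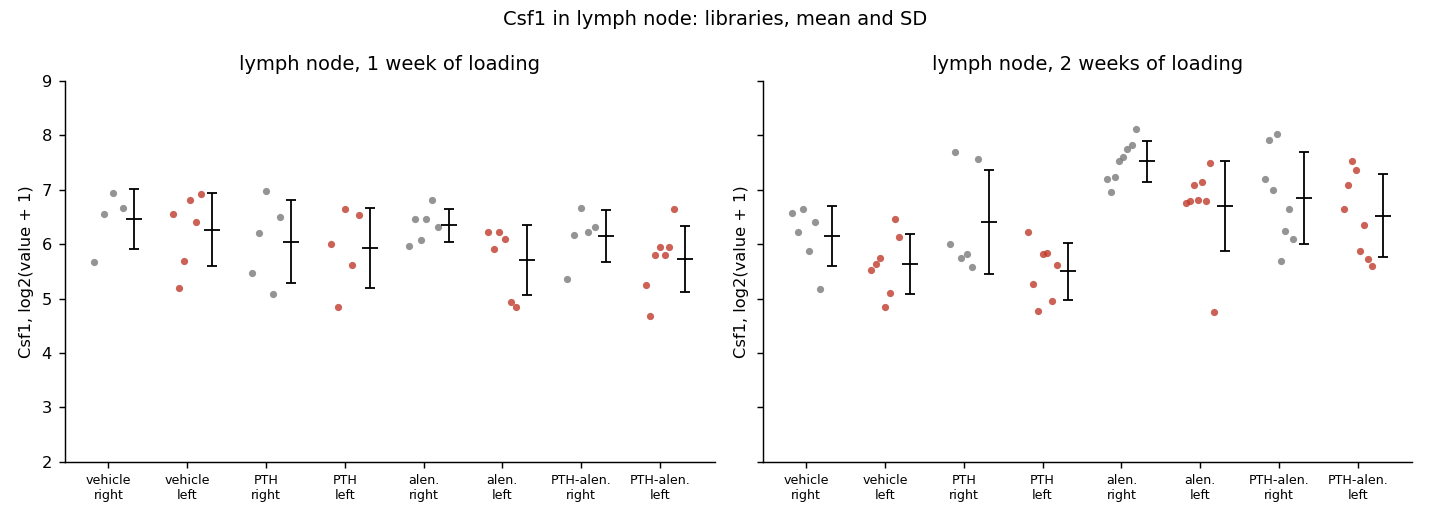
Csf1 in the inguinal lymph node after 1 and 2 weeks as log2(normalised value + 1), by treatment and limb (grey right, red left). Points are libraries, and the bar and whiskers beside them are mean and SD. At 2 weeks the alendronate right nodes lie between 6.97 and 8.11, above every vehicle right node.

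By limma, PTH pretreatment gave no call for any member once loading had begun. Averaged over limbs and concurrent treatment, the largest estimates were -1.14 ± 0.36 for Tnfrsf11b in cancellous bone and -0.85 ± 0.34 in cortical bone at 1 week (limma adjusted p = 0.819 and 0.276), -0.87 ± 0.39 for Il34 in cartilage at 2 weeks (adjusted p = 0.506) and 0.62 ± 0.26 for Csf1r in cancellous bone at 2 weeks (adjusted p = 0.531). The bone averages at 1 week left out the PTH-alendronate left limbs. Few genes passed in these comparisons, from 0% by limma in cancellous bone at both weeks (780 and 1243 at an unadjusted p under 0.05) through 0.0132% in cartilage and 0.0198% in cortical bone at 2 weeks, 0.0399% in cortical bone and 0.292% in cartilage at 1 week, to 2.1% in lymph node at 1 week. In cartilage Tnfrsf11b, the member called before loading, had PTH differences of 0.55 ± 0.39 at 1 week and 0.31 ± 0.31 at 2 weeks. With array weights, Csf1r in cartilage (-0.47, adjusted p = 0.00588) and Tnfrsf11b in cancellous bone (-1.04, adjusted p = 0.0317) passed at 1 week, and from number codes alone Csf1 in cortical bone at 2 weeks (0.69, adjusted p = 0.0372). Tnfsf11 had PTH differences of -0.41 ± 0.30 and 0.11 ± 0.25 in cortical bone at 1 and 2 weeks and of -0.19 ± 0.31 and -0.33 ± 0.35 in cancellous bone. The tests of whether PTH or alendronate changed the loading difference called no member in any table and at most 1 gene in all per comparison, 0.00679% in cartilage for PTH and 0.00665% in cortical and 0.00684% in cancellous bone for alendronate, each at 1 week.

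**Figure D5:**
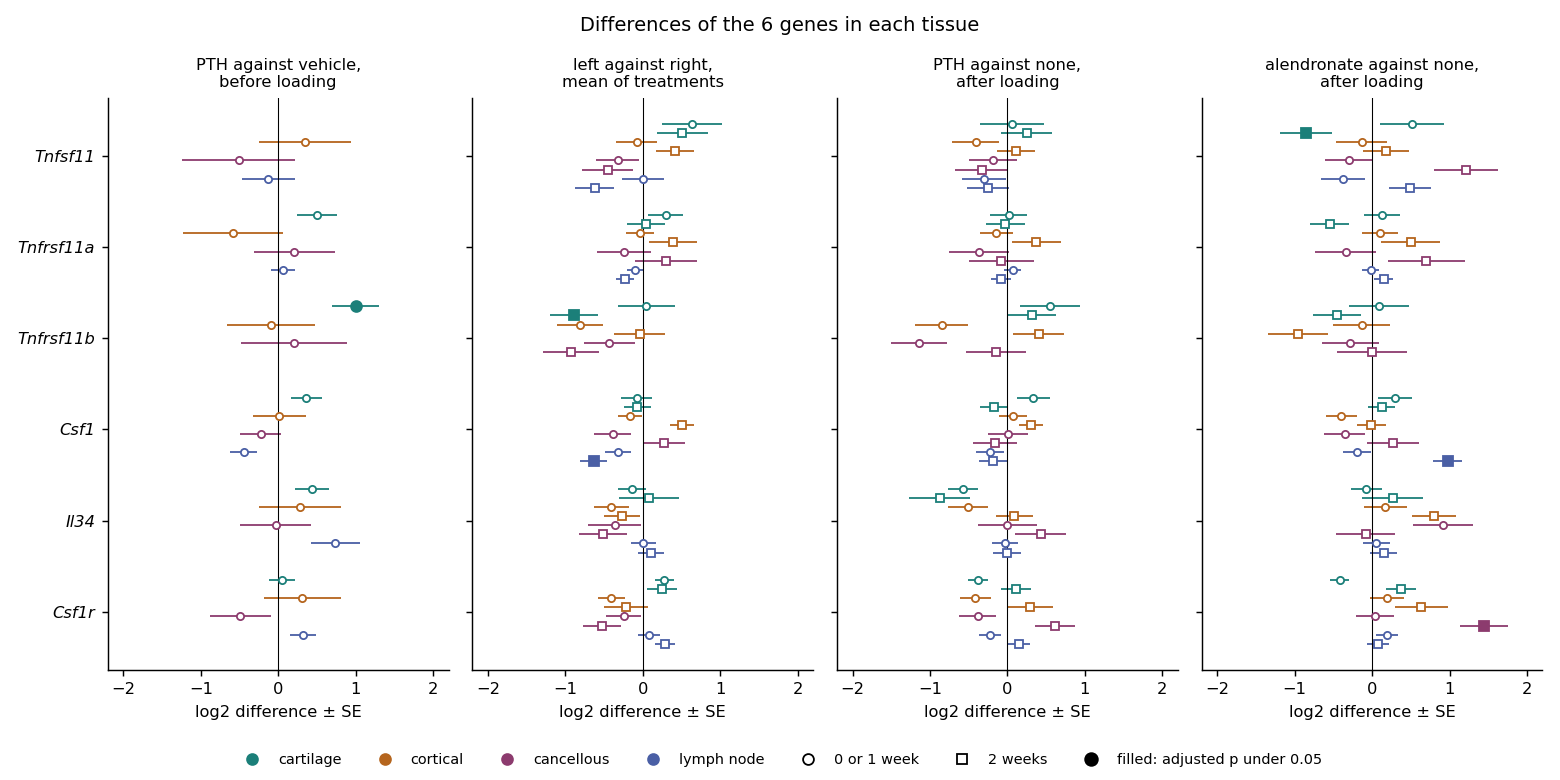
Log2 differences of the 6 genes (± SE) for PTH before loading, loading, PTH after loading and alendronate, by tissue (colour) and week (circle 0 or 1 week, square 2 weeks). Filled symbols have a limma adjusted p under 0.05. The filled symbols are Tnfrsf11b and Tnfsf11 in cartilage, Csf1 in lymph node and Csf1r in cancellous bone.

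Across libraries of the same group, Csf1r and its ligand Il34 moved together. The correlation of their deviations from the group means was positive in 12 of 12 tables, from 0.20 to 0.76 with a median of 0.37, while Csf1 and Csf1r had a median of -0.19 and were positive in 2 of 12. Csf1 and Il34 had a median of -0.27, and RANKL and its receptor Tnfrsf11a a median of 0.25, positive in 11 of 12. These are descriptions within tables of 15 to 59 libraries, which share tissue composition and depth.

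The genes most like each member, by the mean of such correlations over the tables where both were tested, differed between the axes. For Csf1r they were the lysosomal genes Grn (0.77) and Npc2 (0.76) and the ubiquitin-activating enzyme Uba1 (0.71), over 12 tables each. For Csf1 they were the splicing factor Hnrnph1 (0.61), the cholesterol transporter Abca1 (0.56) and Cep170 (0.54), and for Il34 Ifitm2 (0.56), Synpo (0.56) and Ethe1 (0.52). Tnfrsf11b was most like Fibin (0.56), the actin-severing Scin (0.54) and Kank1 (0.52) over 9 tables. Tnfrsf11a was most like Gnptab (0.43), Panx3 (0.43) and Myo1d (0.42), and Tnfsf11 most like Slc35f5, Gm561 and Lsm14a (each 0.45), the weakest likeness beside Tnfrsf11a.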

How the data were processed

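Per the labels, total RNA was extracted with an RNeasy kit and made into 3' end libraries, and samples were not pooled. Trimmomatic 0.39, STAR, edgeR and mm10 are named in the submitters' processing notes, with no settings. The deposited signal is the authors' normalised read count, 1 table per tissue and week, each scaled by itself, so tests stayed within a table. How the scaling factors were made is not given in the sources used here. Within a library 100.0% of values lay within 0.01 of a whole multiple of 1 step, which gave the whole reads back; CPM and depth come from these.

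Of 549 samples 505 had a column and 44 were not analysed here. The 27 entries per table with date-like names (at most 0.159% of reads) were dropped. Libraries under 100000 reads (28) were left out, and a gene was kept with 1 CPM in a number of libraries equal to the smallest group's. Limma 3.58.1 in R 4.3.3 was run on log2(value + 1), where the pseudocount of 1 is 1.03 to 3.95 reads by table, so folds of low genes are understated. All groups of a table shared 1 fit with a variance trend, with the animal as a random block (statmod 1.5.0) and a code series term (numbers or letters) for bone at 1 and 2 weeks. Benjamini-Hochberg adjustment ran over all genes of a comparison, with a threshold of 0.05. Alternatives were edgeR 4.0.16 on the recovered reads, voom, array weights, quantile scaling, other filters and pseudocounts, other blocks, single limbs or code series, and left-out libraries. On simulated counts, limma, edgeR and voom were checked for PTH in cartilage before loading. They were also checked for averaged loading in cartilage, cancellous bone and lymph node at 2 weeks. Alendronate comparisons, single pairs of groups, cortical bone and the other alternatives were not simulated.

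Same-numbered limbs, or limbs of the same animal by code, did not all deviate together (of 14 pairs by code in cartilage before loading, 9 correlated above 0.1), so the pairing is an inference. No 2 libraries of a group agreed within sampling noise.

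The members and lists were chosen with earlier results of these data known. Named besides the members are, for each, the 3 genes most like it and, from each pathway list in a comparison where a member passed, up to 3 genes of smallest p past the threshold; 1 such gene is not reported here. Promoter letters come from RefSeq tables, which matched Tnfsf11, Csf1 and others; Tnfrsf11b and Il34 are named only. Intervals and limits from 0 reads cover counting error only.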

Additional observations from a re-analysis of the deposited data

Results flagged for a closer look

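The groups of 4 to 10 libraries were examined for each gene and table with a called difference, 52 in all, and a single library was flagged where it lay further from its group than Dixon's 95% limit allows. Chance flags about 1 in 20 such groups, and 4 were flagged. All values here are log2 of the normalised value plus 1. Tnfrsf11b in cartilage before loading stood at 5.75 in vehicle right replicate 1 (48 reads), with the other 7 between 3.59 and 4.59. Without that library the PTH difference was 1.07 (limma adjusted p = 0.0144). Tnfsf11 in cartilage at 2 weeks stood at 5.04 in PTH-alendronate left replicate 4 (89 reads), with the others between 0 and 1.70, in the deepest library of all at 3557793 reads. Without it the alendronate difference was -1.001 (adjusted p = 0.00980). Csf1r in cortical bone at 2 weeks stood at 13.3 in vehicle left replicate 6 (1806 reads), with the others between 8.94 and 10.1, and without it the difference of alendronate after PTH in right limbs was 2.42 (adjusted p = 0.00409). Csf1 in lymph node at 2 weeks stood at 4.75 in alendronate left replicate 8, from 3 reads in a library of 153802, with the others between 6.76 and 7.49. Without it the loading difference was -0.56 (adjusted p = 0.0116, with 2431 genes past the threshold) and the alendronate difference 1.05 (adjusted p = 3.5e-07).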

How the results depend on the processing

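Csf1 with alendronate in lymph node at 2 weeks kept its direction and stayed past the threshold in all 8 alternatives, between 0.960 and 1.11 on the log2 scale. Csf1r with alendronate in cancellous bone lost the call only without the code series term (0.97, limma adjusted p = 0.0782) and stayed between 1.30 and 1.61 over 18 left-out libraries. Csf1 with loading in lymph node lost it only with the animal as a fixed replicate block (-0.54, adjusted p = 0.0878); a block of title numbers gave -0.69. Tnfrsf11b with loading in cartilage at 2 weeks lost it with either replicate block (-0.87, adjusted p = 0.0721), and left-out libraries gave -0.98 to -0.76, with the 3 lost calls named above. Leaving the animals out of the fit changed no call of a called member. Tnfrsf11b with PTH before loading lost it with all libraries (0.58, adjusted p = 0.589) and from left limbs alone (0.23, adjusted p = 0.850). Tnfsf11 with alendronate in cartilage was the least steady: it lost the call with edgeR (-0.91), no filter (-0.85, adjusted p = 0.0576), a pseudocount of 0.25 (-1.29), quantile scaling (-0.63) and voom (-0.74), and left-out libraries gave -1.001 to -0.74, with the call lost without left alendronate replicates 1, 3, 4 and 5 and right PTH-alendronate replicates 5 and 6. Il34 with alendronate in cartilage at 2 weeks, not called at 0.27, changed sign with voom (-0.23) and without right PTH-alendronate replicate 5, with -0.0070 to 0.61 over left-out libraries. Il34 in cortical right limbs after PTH lost its call with edgeR, within letter codes alone and without the series term, with adjusted p from 0.0754 to 0.156. Several differences that limma did not call passed in another setting, 15 in all and 11 of them with array weights; those not given above are Csf1r with loading in cartilage at 1 week (0.27), Csf1 with loading in cortical bone at 2 weeks (0.46), Csf1 with PTH in lymph node before loading (-0.42), Csf1r and Il34 with alendronate in cortical bone at 2 weeks (0.76 and 0.86) with array weights, and in cartilage at 2 weeks with alendronate Csf1r (0.62) and Il34 (0.97) with edgeR and Tnfrsf11a with array weights (-0.55), quantile scaling (-0.52) and all libraries (-0.76). In cortical bone at 1 week no averaged difference of a member was called in any setting run. The causes were not tested.

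Counts of genes past the threshold moved by over 1.5 times in these settings. PTH before loading in cartilage called 1858 genes, 20 with all libraries, 1 from left limbs and 2944 with array weights. Alendronate in cancellous bone called 140, and 52 to 836 over the alternatives and 79 to 242 over left-out libraries. Alendronate after PTH in cortical right limbs called 807, and 6 within letter codes to 1748 with edgeR. Loading in lymph node called 898, and 143 with the animal fixed to 2727 with array weights. Alendronate in lymph node called 5162 and up to 7876, and in right nodes 1351 and up to 4590, both with array weights. Libraries were left out in turn only in tables with groups of 5 or fewer, but not in bone at 1 week, where this was not run; in cartilage before loading and lymph node at 2 weeks only the outlying library was left out, and in cartilage at 1 week and lymph node before loading none. Number codes alone gave no alendronate comparison. Depth limits Tnfsf11 in all tissues and Tnfrsf11b in bone, with medians of 1 to 5 reads per library in those tables.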
